A study of Mus musculus with 12 samples.

Results

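The comparison described here is that of dBRD9, a chemical degrader of the bromodomain protein BRD9, with the vehicle control in mouse osteoclast precursors, taken across every expressed gene. Its members are 6 of the 12 RNA-seq libraries of the series, chosen by the treatment in their labels, and the 11670 genes with enough counts to be tested out of 21899 in the table. The cells of all 12 libraries were C57BL/6 mouse bone marrow-derived monocytes (BMDMs; from C57BL/6J mice, 4 to 6 weeks old and of either sex, in the methods), grown with 50 ng/ml of M-CSF and 100 ng/ml of RANKL, which together drive monocytes towards osteoclasts. The control group (MR) received these cytokines and vehicle, the dBRD9 group received the cytokines and dBRD9, and 3 libraries each were made with JQ1, which blocks the bromodomains of BET proteins, and with dexamethasone (DEX) together with the BRD9 inhibitor iBRD9. A working dose of dBRD9 was chosen in the study, but the sources used here tie neither a dose nor a time to these libraries. They also do not say whether the 3 libraries of a group came from separate animals or cultures, so that every p-value measures the spread between these libraries alone.

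BRD9 reads acetylated lysines through its bromodomain and belongs to the non-canonical BAF complex (ncBAF), a nucleosome remodeler that it forms together with GLTSCR1 or GLTSCR1L, encoded in the mouse by Bicra and Bicral, and the subunits shared with the other BAF complexes. dBRD9 is a bifunctional molecule. One end binds the bromodomain of BRD9 and the other binds cereblon, the substrate receptor of a cullin 4 ubiquitin ligase, so that BRD9 is ubiquitinated and destroyed by the proteasome. The loss is therefore of protein, and the transcript is not cut. Macrophages and osteoclast precursors also keep a basal level of type I interferon signaling, in which interferon-beta acts through its receptor on the factor ISGF3, which holds STAT2 and IRF9, and this signaling restrains osteoclast formation.

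The libraries were of like depth. Between 15080959 and 18067758 counts were assigned to genes in the 6 libraries compared. Macrophage markers summed to between 19300 and 20700 CPM (counts scaled to a common library size) in these libraries, and the 8 osteoclast markers to between 161 and 194 CPM, with Calcr, the calcitonin receptor, at 0 counts in each of them. Transcripts of liver and skeletal muscle stood apart. Albumin was counted 801 times in MR library 3 and between 738 and 866 times in the 3 dBRD9 libraries, but 0 and 2 times in MR libraries 1 and 2 and at most 1 time in each library with DEX and iBRD9. The 3 JQ1 libraries held 744 to 1031 counts of it. The 6 hepatocyte markers together made up 60.0 to 74.0 CPM in MR library 3 and the dBRD9 libraries, 58.5 to 92.6 CPM with JQ1 and at most 0.417 CPM elsewhere. The sum of the 5 skeletal muscle markers followed the same division at a lower level. It was 5.15 to 6.83 CPM in MR library 3 and the dBRD9 libraries and 0.966 and 1.27 CPM in MR libraries 1 and 2. Acta1, the skeletal actin gene, had 0 counts in the latter 2 libraries and 46 to 79 in the former 4. Tnnt3 did not show the division, with 13, 14 and 21 counts in MR and 22, 17 and 14 with dBRD9. This division runs partly along the comparison, since all 3 dBRD9 libraries but only 1 of the 3 MR libraries hold it, and its part in the results was not tested beyond the values given beside them.

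dBRD9 acts on the protein, and the Brd9 transcript was measured at 40.7, 46.1 and 40.4 CPM in the MR libraries and at 46.1, 45.6 and 43.6 CPM in the dBRD9 libraries. The groups overlapped (log2 fold change 0.09 ± 0.079, SE, edgeR adjusted p = 0.62). Bicra and Bicral, the subunits that define ncBAF, gave log2 fold changes of 0.12 and -0.10 with adjusted p = 0.62 and 0.64. None of the 7 subunits of canonical BAF, the 4 of PBAF and the 13 shared subunits that were tested was called. Among the 10 genes of the cereblon ligase, Crbn stood at 34.8 CPM without and 35.4 CPM with dBRD9 (adjusted p = 0.92), and none of the other 9 was called. No BRD9 protein was measured in these data.

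Most called changes were small, and how many genes passed depended on the model. The counts given here come from the model of all 12 libraries, while the 6 compared libraries alone gave 776 calls among 11434 genes (6.79%). At an adjusted p below 0.05, 60 genes rose and 131 fell, or 191 of the 11670 tested. These are 1.64% of the tested genes, 0.514% higher and 1.12% lower. The median log2 fold change was 0.32 among the genes that rose and -0.33 among those that fell, while over all tested genes it was 0.01. Cdk2ap1 and Ppp1r14b were the sole called genes above 5 CPM to come close to a doubling, at 1.92-fold and 1.87-fold. No MR library overlapped a dBRD9 library for 190 of the 191 called genes, Pals1 being the exception, and this held for 25.0% of all tested genes. All 191 called genes are protein coding, as are 11650 of the 11670 genes tested.

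**Figure D1:**
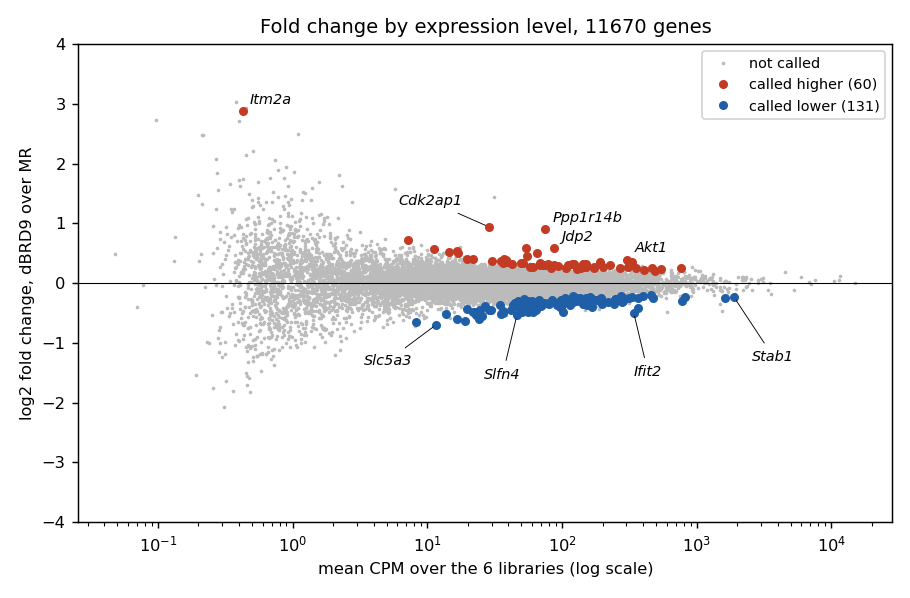
Log2 fold change of dBRD9 over MR for each tested gene against its mean CPM over the 6 libraries on a log axis, with the 60 genes called higher in red and the 131 called lower in blue. The called genes lie close to the line of no change, and the single called gene under 1 CPM is Itm2a (Card14, not called, lies outside the axis).

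The number of calls depended on which libraries were in the fit. Leaving out MR library 1 or MR library 2 left 24 and 15 calls, leaving out MR library 3 left 145, and leaving out dBRD9 library 1, 2 or 3 left 36, 56 and 51. A fit of the 6 compared libraries alone called 776 of 11434 genes (6.79%), 276 higher and 500 lower. Of the 191 genes, 189 were among them. Of the 191 genes, 7 were called in all 6 fits that each left out a library, and 74 in none of them.

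The 7 genes that held were Cdk2ap1, Jdp2 and Akt1, which rose, and Slfn4, Slfn5, Ddx60 and Eif2ak2, which fell. Cdk2ap1 encodes an inhibitor of the kinase CDK2 that is also a subunit of the NuRD chromatin remodeler. The gene lies at chr5:124483480-124501145 (GRCm39, GENCODE vM39). It was measured at 19.6, 20.7 and 18.5 CPM in the MR libraries and at 39.4, 38.8 and 34.9 CPM in the dBRD9 libraries. The lowest dBRD9 library was far above the highest MR library, and the log2 fold change was 0.94 ± 0.098 (SE, edgeR adjusted p = 2.1e-06). It was the sole gene still called when the albumin division was added to the model as a term (log2 fold change 1.03 ± 0.15, adjusted p = 0.0029).

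Jdp2 encodes a repressor of the AP-1 family that is known in the mouse to promote osteoclast formation, and lies at chr12:85645015-85690570. Its level was 64.1, 75.5 and 70.2 CPM in the MR libraries and 98.8, 113 and 101 CPM with dBRD9, again without overlap (log2 fold change 0.58 ± 0.073, adjusted p = 5.5e-05). Akt1, the kinase downstream of PI3K that M-CSF activates, was at 253, 263 and 274 CPM in MR and at 346, 346 and 345 CPM with dBRD9 (log2 fold change 0.39 ± 0.052, adjusted p = 0.00011). The 3 dBRD9 libraries agreed within 1 CPM for Akt1. Exons of Siva1 and Zbtb42 overlap Akt1 on the opposite strand, and the strand setting of the counts is not given in the sources used here.

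The 4 stable falls are all genes that interferon induces. Slfn4 and Slfn5 belong to the schlafen family, several members of which restrain cell growth. Slfn4 was at 54.7, 53.2 and 56.5 CPM in the MR libraries and at 39.6, 33.7 and 39.7 CPM with dBRD9 (log2 fold change -0.54 ± 0.09, adjusted p = 0.0042). Slfn5, the more abundant, was at 395, 426 and 433 CPM against 324, 303 and 316 CPM (log2 fold change -0.41 ± 0.069, adjusted p = 0.0058). Both fell below the lowest MR library in each dBRD9 library. Ddx60 encodes a helicase that aids RNA sensing, and it was at 70.1, 71.1 and 70.4 CPM against 46.4, 51.4 and 53.2 CPM (log2 fold change -0.49 ± 0.085, adjusted p = 0.006). Eif2ak2 encodes PKR, the kinase that stops translation when it binds double-stranded RNA, and was at 220, 225 and 220 CPM against 177, 170 and 177 CPM (log2 fold change -0.34 ± 0.057, adjusted p = 0.0042). With the albumin division as a term the log2 fold changes of these 4 genes ranged from -0.59 to -0.33 and none was called (adjusted p between 0.28 and 0.5). That model leaves MR library 3 as the single control with albumin.

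**Figure D2:**
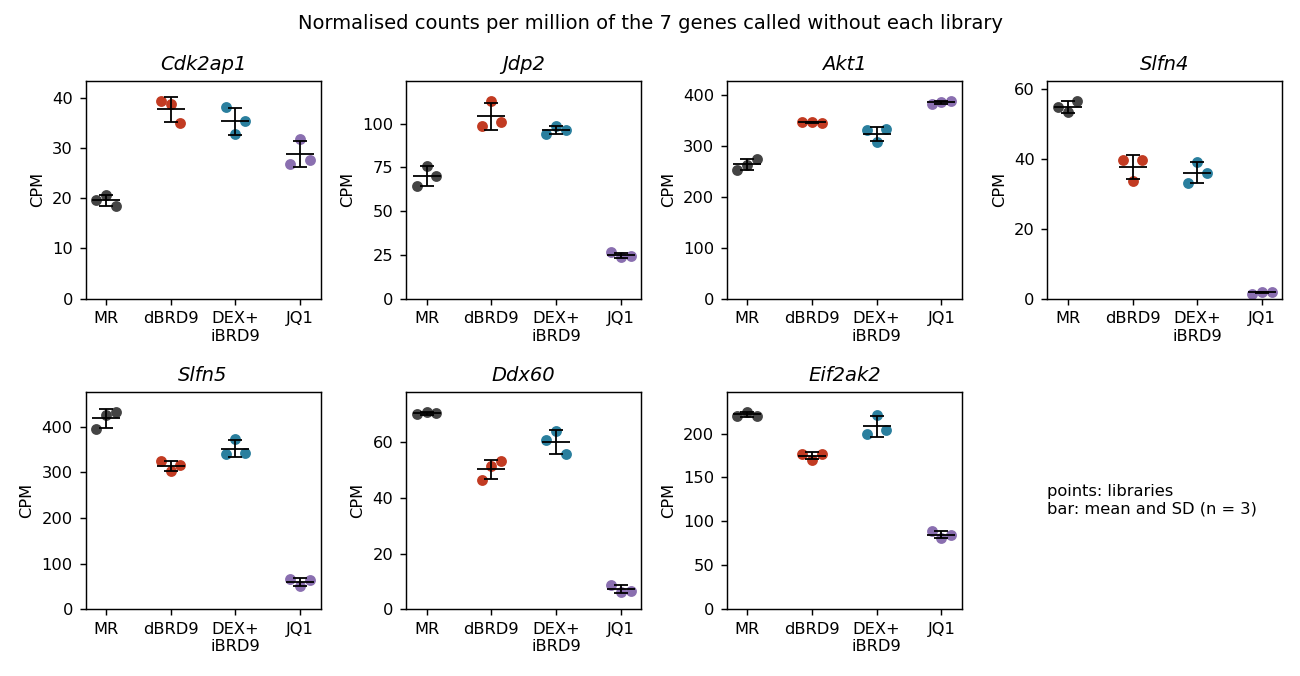
CPM of the 7 genes that were called in every fit that left out a library, in the 12 libraries by group (points) with the mean and SD of 3 libraries (bars). Cdk2ap1, Jdp2 and Akt1 are higher and Slfn4, Slfn5, Ddx60 and Eif2ak2 lower in each dBRD9 library than in each MR library.

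These genes were also read in the other treated groups. Cdk2ap1 had a mean of 35.4 CPM with DEX and iBRD9, Jdp2 96.3 CPM, Akt1 324 CPM and Slfn4 35.9 CPM, all within 0.13 log2 units of the dBRD9 mean in the fitted contrast of those groups (adjusted p = 0.67, 0.4, 0.35 and 0.76). The libraries with DEX and iBRD9 hold almost no albumin. Slfn5 and Ddx60 were 0.16 and 0.26 log2 units lower with dBRD9 than with DEX and iBRD9 (adjusted p = 0.22 and 0.098), and Eif2ak2 was 0.25 lower (log2 difference -0.25 ± 0.057, adjusted p = 0.017). Across all genes, 2.36% were called between dBRD9 and the DEX and iBRD9 group, beside 1.64% between dBRD9 and MR. In the former comparison dexamethasone and the mode of BRD9 loss cannot be told apart. JQ1 was far more different, with 63.2% of genes called against dBRD9. Jdp2 was at 24.8 CPM with JQ1, below the control, and Slfn4 at 1.78 CPM, while Akt1 was at 385 CPM. The comparisons of each treated group with MR share the same 3 control libraries.

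Genes that interferon induces made up the largest set among the falls, with 26 genes beside 25 of membrane traffic and the cytoskeleton. The roles used from here on were assigned to the 191 called genes after their values were seen, and no test rests on them. Genes that were not called have no role, so that a count by role describes the calls and cannot be read against the share of all genes. Of the 131 genes that fell, 26 are interferon-induced, with log2 fold changes from -0.60 (Ms4a4c) to -0.23 (Stat2) and a median of -0.35. They cover several arms of the antiviral response. Ifit1, Ifit2 and Ifit1bl1 bind foreign RNA or belong to that family. Irgm1, Iigp1c, Tgtp2 and Gvin1 are GTPases of the response to intracellular pathogens. Trim25, Trim30a, Trim30d, Herc6 and Dtx3l encode ubiquitin or ISG15 ligases or their partners, Parp11 and Parp14 are ADP-ribosyltransferases, and Ifi203 and Ifi213 are DNA-binding proteins of the p200 group. Cd274 encodes PD-L1.

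Ms4a4c showed the largest fall of the set, at 28.7, 31.4 and 27.4 CPM in MR and 19.7, 17.1 and 21.1 CPM with dBRD9 (log2 fold change -0.60 ± 0.11, adjusted p = 0.0087, called in 4 of the 6 fits that left out a library). Ifit2 was at 360, 426 and 411 CPM against 267, 263 and 319 CPM (log2 fold change -0.50 ± 0.094, adjusted p = 0.019). Parp14, the most abundant, was at 833, 861 and 886 CPM against 703, 659 and 735 CPM (log2 fold change -0.30 ± 0.056, adjusted p = 0.0079). In all 3 genes the groups were apart. Stat2, a subunit of the factor ISGF3, was at 350, 344 and 370 CPM against 294, 291 and 323 CPM (log2 fold change -0.23 ± 0.059, adjusted p = 0.046), and was called in none of the fits that left out a library.

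A longer list of 99 interferon targets was drawn up for these data with earlier results known. Its called members are all among the interferon-induced falls described above, so their share cannot be read as a separate result. Of 97 tested members 22 fell and none rose, or 22.7% against the 1.12% of all tested genes that were called lower. The other 75 did not pass the test, with log2 fold changes between -0.53 and 0.26, and 61 of them were below 0. The median of the list was -0.20, beside 0.01 over all tested genes. Among the schlafens, Slfn3, Slfn4, Slfn5 and Slfn8 fell, and Slfn1, Slfn2 and Slfn9 were not called, with log2 fold changes of -0.34, -0.03 and -0.18. These genes are close copies of each other, and how reads that fit more than 1 of them were counted is not given. Isg15 and Bst2, which are usually among the strongest targets, had log2 fold changes of -0.12 and -0.05, and Ifi27 of 0.26.

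Few genes of the pathway above these targets were called. Of 8 listed interferon ligand and receptor genes, 5 had enough counts to be tested, namely Ifnar1, Ifnar2, Ifngr1, Ifngr2 and Il10rb. These are receptor genes, and no ligand gene was tested. None of the 5 was called, and all 5 had log2 fold changes above 0. Ifnar1 and Ifnar2, the receptor chains for interferon-beta, stood at 284 and 59.9 CPM in MR and at 285 and 60.6 CPM with dBRD9. Of 16 kinases, STATs, IRFs and their regulators, Stat2 alone was called (6.25%, beside 1.64% of all tested genes). The fit of the 6 libraries called 2 of them, both lower (12.5% beside 6.79%). Of the 16, 10 had log2 fold changes below 0 and 6 above. Stat3, not called, was lower in each dBRD9 library than in each MR library (log2 fold change -0.17, edgeR adjusted p = 0.17), as was Jak1. Irf3, also not called, was higher in each (log2 fold change 0.21, edgeR adjusted p = 0.22). The groups were apart in 1 direction or the other for 25.0% of all tested genes. Irf7 (-0.06), Irf9 (-0.03), Irf1 (0.06) and the kinases Jak1 (-0.07) and Tyk2 (0.04) were not called.

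Another 8 of the falls were grouped under Golgi glycosylation, with Golga3 included only as the gene of a Golgi protein. C1galt1, which builds the core 1 structure of O-glycans, was at 69.5, 68.8 and 69.3 CPM in MR and at 52.4, 52.6 and 53.1 CPM with dBRD9 (log2 fold change -0.39, adjusted p = 0.01). The spread inside each group was under 1 CPM. Galnt7, of the enzyme family that starts O-glycans, was at 90.5, 86.3 and 93.6 CPM against 66.7, 72.7 and 72.7 CPM (log2 fold change -0.35, adjusted p = 0.0099). Gcnt1, which branches these chains, Csgalnact2 of chondroitin sulfate synthesis, St8sia4 of polysialylation, Man2a1 of N-glycan trimming, the sugar transporter gene Slc35a3 and the Golgi protein gene Golga3 completed the set, with log2 fold changes from -0.43 to -0.25. C1galt1 and Galnt7 were each called in 4 of the 6 fits that left out a library, and the other 6 in 3 or fewer.

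Surface receptors formed a set of 12. Ccr2, the chemokine receptor of inflammatory monocytes, was at 34.8, 29.6 and 27.1 CPM in MR and at 20.7 ± 0.654 CPM (mean and SD, n = 3; highest 21.2) with dBRD9 (log2 fold change -0.56, adjusted p = 0.012). Clec2i, a C-type lectin gene, fell by 0.59 and Kdr, a VEGF receptor gene, by 0.51 on the log2 scale. The receptors for nucleic acids Tlr7 and Tlr8, the lipopolysaccharide receptor gene Tlr4, the peptide receptor gene Calcrl, the Notch ligand gene Jag1 and the transferrin receptor gene Tfrc fell by 0.26 to 0.40. Stab1 and Mrc1, scavenger and mannose receptors of macrophages, were among the most abundant called genes and fell from 2060 to 1740 CPM and from 488 to 423 CPM. Tfrc fell while Trf, which encodes transferrin, rose from 46.9 to 64.0 CPM (log2 fold change 0.45, adjusted p = 0.014). Trf was at 40.4, 43.1 and 57.1 CPM in MR libraries 1, 2 and 3. Liver also makes Trf, and MR library 3, which holds albumin, had the highest control value. With the albumin division as a term the log2 fold change of Trf was 0.16 (adjusted p = 0.82). The part of liver RNA in this rise was not tested further.

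Transcription factors and other chromatin proteins gave 13 falls. Mitf, which drives osteoclast genes together with its relatives, was at 131, 128 and 125 CPM in MR and at 92.1, 110 and 95.6 CPM with dBRD9 (log2 fold change -0.37 ± 0.073, adjusted p = 0.011). Ets2, an effector of M-CSF signaling, fell from 312 to 249 CPM (log2 fold change -0.32, adjusted p = 0.0099). Tcf4 fell by 0.39, the zinc finger gene Zfp729b by 0.66, Creb5 by 0.49, Klf7 by 0.39, Mef2a by 0.30, Hif1a by 0.29 and Nr3c1, the glucocorticoid receptor gene, by 0.28 on the log2 scale. The group libraries were apart for each of these genes, and Ets2 and Tcf4 were called in 4 of the 6 fits that left out a library.

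The genes of the osteoclast program moved in both directions or not at all. Of 26 tested regulators of the lineage, Jdp2 rose, Mitf and Tcf4 fell, and the other 23 did not pass the test. The 3 called genes are 11.5% of the list beside 1.64% of all tested genes, and 5 were called in the fit of the 6 libraries (19.2% beside 6.79%). The list was drawn up with earlier results known, and its median was 0.07, and 0.00 in a model with offsets for GC content and transcript length. Nfatc1, the master factor, was at 60.9 and 61.5 CPM, Fos at 190 and 218 CPM (adjusted p = 0.091), and Tnfrsf11a, which encodes RANK, at 133 and 129 CPM. None of 20 tested effectors was called, while the fit of the 6 libraries called 2 of them (10.0% beside 6.79%), 1 of which was lower. Ctsk, cathepsin K, was at 8.11 and 5.90 CPM (adjusted p = 0.28), Acp5, the tartrate resistant phosphatase, at 8.18 and 10.3 CPM (adjusted p = 0.31), Mmp9 at 115 and 128 CPM and Dcstamp, needed for cell fusion, at 4.77 and 5.59 CPM. Ctsk, Acp5 and Dcstamp were low in both groups.

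Membrane traffic and the cytoskeleton took 25 of the falls, and lipids, metabolism and transport 16. Iqgap1, a scaffold of the actin cortex, fell from 1770 to 1490 CPM and Actr2, a subunit of the ARP2/3 complex, from 886 to 753 CPM. The small GTPase genes Rab6a and Rab8b fell by 0.40 and 0.25, the motor gene Kif5b by 0.35 and the scaffold gene Homer1 by 0.52 on the log2 scale. Slc5a3, a myo-inositol transporter gene, had the largest fitted fall of a gene above 5 CPM, from 14.4 to 8.83 CPM (log2 fold change -0.70 ± 0.17, adjusted p = 0.032), and it shares exons with Mrps6 on the same strand. Stra6l, a gene of retinol transport, was at 27.3, 21.0 and 21.9 CPM against 15.6, 14.0 and 15.5 CPM (log2 fold change -0.64, adjusted p = 0.011). The cholesterol exporter gene Abca1, the cystine transporter gene Slc7a11, the NAD synthesis gene Nampt and the ceramide synthase gene Cers6 fell by 0.26 to 0.37.

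Smaller sets completed the falls. The signaling genes were Skil, a repressor of TGF-beta signaling, which fell by 0.49, Sgk1 (0.32), Prkcb (0.37), Socs4 (0.45), Stap1 (0.22) and the Hippo pathway genes Mob1b (0.46), Taok1 (0.31) and Lats1 (0.29), as log2 falls. RNA-binding proteins gave 10 genes, among them Ddx6 of RNA decay, Mbnl2 and Celf1 of splicing, Ythdf3, a reader of methylated adenosine, and Srek1ip1, which fell by 0.25 to 0.49. Mmp13, a collagenase, was at 53.0, 55.0 and 50.8 CPM against 40.2, 36.6 and 44.9 CPM (log2 fold change -0.38, adjusted p = 0.025).

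The 60 rises were of other kinds. Translation gave 9 genes, among them the ribosomal protein genes Rps2, Rps3a1, Rps12 and Rpl12 and the scaffold gene Rack1, with a median log2 fold change of 0.25. The ribosomal protein genes called higher were 4 of 82 tested (4.88%, beside 0.514% of all genes called higher). Rps2 rose from 703 to 833 CPM (adjusted p = 0.048) and Rack1 from 458 to 525 CPM (adjusted p = 0.047). Cell division and DNA synthesis gave 9 genes. Besides Cdk2ap1 they were Cdc20 and Ube2c of the anaphase promoting complex, Rrm2 of ribonucleotide reduction, Chaf1b of chromatin assembly, Rcc2, Kpna2, Nudc and Ankle1, with log2 fold changes of 0.25 to 0.53. Rcc2 was at 196, 205 and 209 CPM against 240, 251 and 260 CPM and was called in 5 of the 6 fits that left out a library.

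The signaling genes that rose were led by Ppp1r14b, an inhibitor of protein phosphatase 1. It was at 39.9, 51.7 and 64.8 CPM in MR and at 95.8, 101 and 95.8 CPM with dBRD9 (log2 fold change 0.91 ± 0.16, adjusted p = 0.029). The control libraries were spread widely, it was called in 2 of the 6 fits that left out a library, and its exons overlap those of Plcb3 and Fkbp2 on the opposite strand. Ppp2cb, a catalytic subunit of protein phosphatase 2A, was at 41.5, 47.7 and 40.7 CPM against 55.2, 61.3 and 78.5 CPM (log2 fold change 0.58, adjusted p = 0.0099). Reps1, an endocytic adaptor gene, Csf2ra, the receptor gene for GM-CSF, Dok2, Dusp1 and Phlda3 rose by 0.24 to 0.40. Other rises were Taf10 of the general transcription machinery and Phc2 of Polycomb (both 0.32), Hlx (0.36), Med11 (0.41), Cox6a1 and Ndufs7 of the respiratory chain (0.36 and 0.37), and the metallothionein gene Mt1 (0.34), as log2 values. Itm2a gave the largest fitted change, but rests on 1, 3 and 1 counts in MR and 5, 17 and 18 counts with dBRD9, and was called in none of the fits that left out a library.

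**Figure D3:**
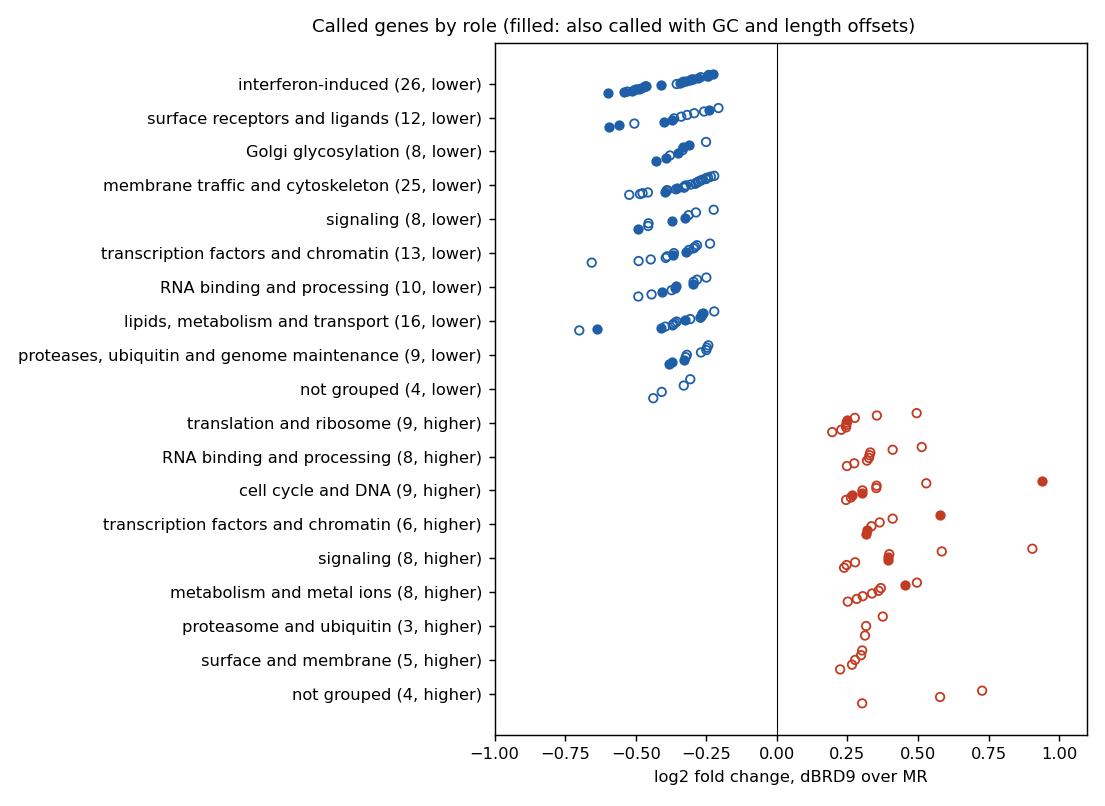
Log2 fold change of dBRD9 over MR for the called genes, a point each, by role, with the number of genes in each role in brackets (Itm2a, 1 of the 4 ungrouped rises, lies outside the axis). Filled points are also called in the model with GC and length offsets, and the largest filled share among the falls is in the interferon-induced and glycosylation rows.

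The fold change followed the composition and the length of the transcript. Genes were divided into 5 bins of equal size by the GC content of the canonical transcript. The median log2 fold change rose from -0.09 in the bin with the lowest GC content (32.7 to 44.4%) through -0.03, 0.02 and 0.06 to 0.10 in the highest (55.8 to 71.3%). The falls lay in the lowest bin in 98 of 131 cases and the rises in the highest in 29 of 60. Transcript length was taken as the gene length behind the deposited FPKM values. By this length the medians ran from 0.10 for the shortest bin to -0.08 for the longest. The shortest bin held 31 rises and 2 falls, and the longest no rise and 61 falls. Across genes, Spearman's rho of the fold change was 0.37 with GC content and -0.35 with length, over genes that share libraries and are not independent. The medians over both at once went from -0.14 in long transcripts with low GC content to 0.15 in short ones with high GC content.

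The genes called reflected this. The genes that rose had a median GC content of 55.4% and a median length of 2528 bases. Those that fell had 42.1% and 7223 bases, and all tested genes 50.1% and 4522 bases. For the canonical transcript the median length was 1924 bases among the rises and 5593 bases among the falls. Each of the 3 dBRD9 libraries showed the trend against the mean of the MR libraries. From the lowest to the highest GC bin the median difference went from -0.14 to 0.13 in dBRD9 library 1, from -0.05 to 0.06 in library 2 and from -0.09 to 0.10 in library 3. The other treated libraries were read in the same way. The 3 JQ1 libraries went from -0.03, -0.13 and -0.07 to 0.06, 0.13 and 0.09, DEX and iBRD9 library 1 from -0.05 to 0.07, and the other two with DEX and iBRD9 stayed within 0.01 of 0 in both bins. MR library 3 went from -0.02 to 0.03, and MR libraries 1 and 2 the other way by up to 0.01 at either end. The GC trend was thus unequal among the dBRD9 libraries, slight within the MR libraries and also present in the JQ1 libraries. The length trend was not shared in this way. From the shortest to the longest bin JQ1 library 1 went the other way, from -0.12 to 0.12. JQ1 libraries 2 and 3 went from 0.033 and 0.005 to -0.036 and -0.066. The libraries with DEX and iBRD9 went from -0.017, -0.041 and -0.029 to 0.003, 0.002 and -0.004. The source of the trends was not tested.

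**Figure D4:**
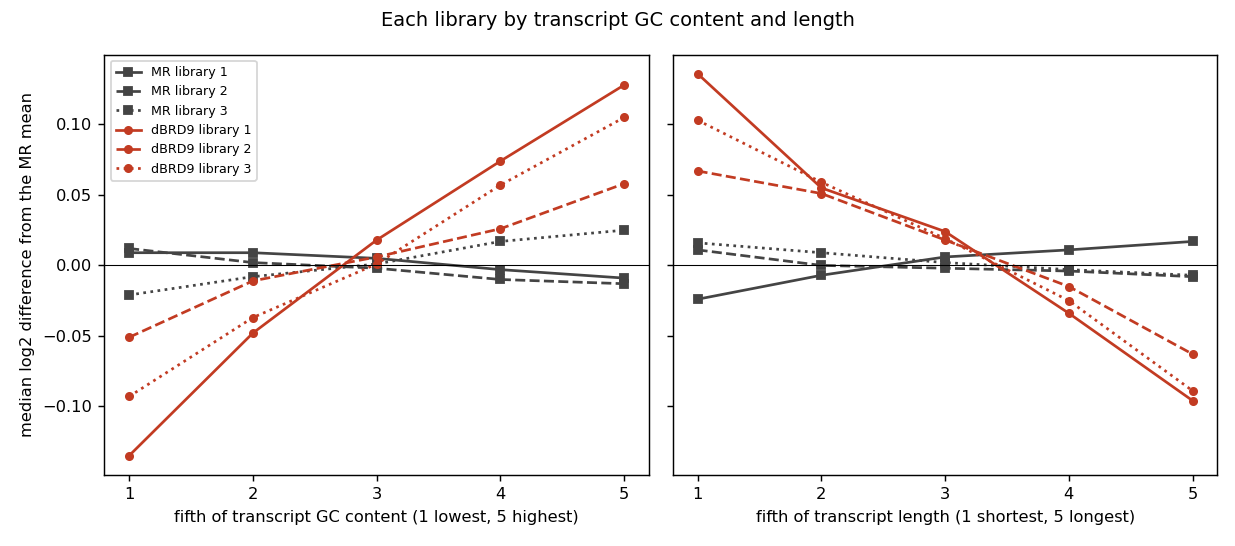
Median log2 difference of each of the 6 libraries from the mean of the MR libraries in 5 bins of genes by transcript GC content (left) and length (right). All 3 dBRD9 libraries rise with GC content, from -0.14, -0.05 and -0.09 to 0.13, 0.06 and 0.10, and fall with length, while the MR libraries stay within 0.03 of 0.

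A model that takes up the smooth dependence on GC content and length of each library as offsets called 73 genes (0.626%), 17 higher and 56 lower, of which 53 were among the 191. This model was added after the trend was seen. No called gene changed sign, and the size of the change was a median of 0.704 times that without offsets. Of the 26 interferon-induced falls 15 were still called, as were 5 of the 8 genes grouped under Golgi glycosylation. Of the translation genes 1 of 9 was still called, and of the genes of membrane traffic and the cytoskeleton 2 of 25. All 7 genes that held without each library were called. The list of interferon targets had a median of -0.20 in both models, with 22 members called without and 13 with the offsets, while the median of the 82 tested cytosolic ribosomal protein genes went from 0.14 to 0.05. Mitf, Ets2, Ccr2, Skil, Sgk1, Tlr7, Stab1 and Mmp13 among the falls, and Reps1, Trf, Taf10, Phc2, Kpna2, Eif3f and Rcc2 among the rises, stayed called.

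Another 20 genes were called with the offsets alone, 13 of them lower. Helz2, Parp12 and Znfx1, antiviral genes that interferon induces, were at -0.30, -0.26 and -0.21 on the log2 scale of that model. Spp1, which encodes osteopontin, a protein by which osteoclasts attach to bone, was at 2030 CPM in MR and 1790 CPM with dBRD9, with a log2 fold change of -0.22 and an adjusted p of 0.024 with the offsets against -0.18 and 0.12 without. Ncf1 of the phagocyte oxidase and Glul, glutamine synthetase, were both at -0.24. Among the higher genes were Ccna2 (0.28), Rrm1 (0.26) and Racgap1 (0.25), which act in S phase and cell division. The offsets also take up any change in the cells that runs along GC content or length.

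**Figure D5:**
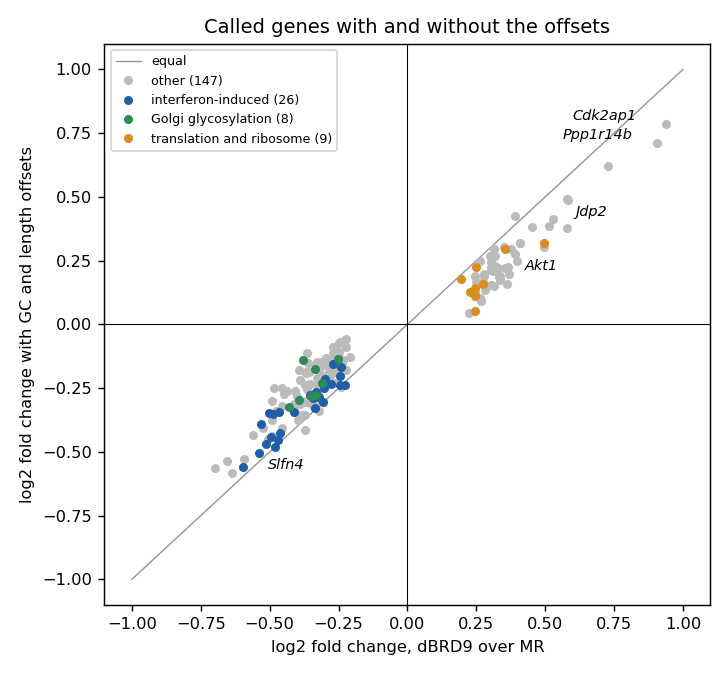
Log2 fold change of the called genes in the model without offsets (horizontal) and with GC and length offsets (vertical), with equal values on the grey line (Itm2a, at 2.88 and 2.87, is left out). The size with offsets is a median of 0.841 times that without for the interferon-induced genes (0.57 to 1.05) and 0.576 times for the translation genes.

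Groups of genes that share a symbol stem showed the same axis in part. Of 144 stems with at least 10 tested genes, the lowest median was that of the Ifi genes, the interferon-inducible proteins of several families (-0.22 over 16 genes, 3 called lower). Next came Inpp (-0.14), Klf (-0.14), Zc (-0.13) and the Toll-like receptors (-0.12 over 10 genes, 3 called lower). With the offsets Ifi stood at -0.17, Klf at -0.13 and Tlr at -0.14. The Ccl genes, next in order, went from -0.12 without to -0.20 with the offsets, below Ifi (11 genes, none called). At the other end were Ndufa of respiratory complex I (0.16 over 13 genes), Psmb of the proteasome (0.15), the tetraspanins (0.15), Rpl (0.15 over 49 genes, 1 called) and Cox (0.14). With the offsets Ndufa, Psmb, Rpl and Cox were at 0.05, 0.03, 0.05 and 0.02, and the tetraspanins at 0.13. The Mcm genes of the replicative helicase were at 0.13 without and 0.10 with the offsets, 9 of 10 above 0, none called. The 334 Zfp genes had a median of -0.03, which turned to 0.00 with the offsets. By chromosome the medians ran from -0.04 on X to 0.06 on 7 where more than 100 genes were tested, and from -0.02 to 0.01 with the offsets.

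Promoters were read for letters that match known factor sites. The window ran from 250 bases before to 50 bases after the start of the canonical transcript on GRCm39, on both strands, and had a sequence for 11665 of the tested genes. GAAANNGAA, the core of the interferon-stimulated response element (ISRE) that ISGF3 and IRFs bind, was present for 24 of 131 genes that fell (18.3%), 3 of 60 that rose (5.0%), 958 of all tested (8.21%) and 8.88% of all 21700 promoters. Within the falls it was present for 16 of the 26 interferon-induced genes (61.5%) and 8 of the other 105 (7.62%), a share near that of all genes. Of the 56 genes lower with the offsets 17 held it (30.4%). In the fit of the 6 libraries the contrast was smaller, at 13.2% of the 500 genes lower and 9.78% of the 276 higher. The GAS letters TTCNNNGAA were present for 7.63% of the falls and 7.67% of all tested genes. The GC box GGGCGG was present for 70.0% of the rises, 51.1% of the falls and 58.4% of all tested genes. For the calls in the fit of the 6 libraries it was present for 61.2% of the rises and 58.8% of the falls.

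The stretches that hold the ISRE letters are shown for genes that fell, 5′ to 3′ along the gene, with every match in capitals on either strand. The first 5 are interferon-induced, and Cd274 with them. C1galt1 and Ccr2 are shown because they fell without being known chiefly as interferon targets. Longer stretches lie in no annotated exon.
Slfn5 (chr11:82842781-82842810, + strand): aaaaaaaaaaagctcTTCTCTTTCttaaag
Ddx60 (chr8:62381087-62381116, + strand): tctgggagcagaagaGAAACCGAAactatc
Ifit1 (chr19:34618175-34618254, + strand): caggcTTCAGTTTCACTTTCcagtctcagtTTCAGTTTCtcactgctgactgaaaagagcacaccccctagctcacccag
Irgm1 (chr11:48762257-48762286, - strand): ctgtttcaaGAAATAGAAACCGAAactgat
Stat2 (chr10:128106116-128106195, + strand): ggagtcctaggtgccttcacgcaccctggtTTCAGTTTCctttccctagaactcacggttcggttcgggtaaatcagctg
Cd274 (chr19:29344449-29344528, + strand): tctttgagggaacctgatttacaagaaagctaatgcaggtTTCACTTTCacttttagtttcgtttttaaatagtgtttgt
C1galt1 (chr6:7844430-7844509, + strand): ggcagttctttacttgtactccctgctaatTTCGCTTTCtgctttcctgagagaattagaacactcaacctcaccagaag
Ccr2 (chr9:123902119-123902148, + strand): tcttttatctccgccTTCTCTTTCtgcagg

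Ifit1 holds 3 matches in its 80 bases and Irgm1 holds 2 that overlap, while Stat2, Cd274 and C1galt1 hold 1 each. The last match begins 21 bases before the start in Ddx60, 24 in Irgm1, 40 in Cd274, 61 in Ccr2, 66 in Ifit1, 132 in Slfn5, 174 in C1galt1 and 206 in Stat2. Ifit1 fell by 0.31 and Ddx60 by 0.49 on the log2 scale. A match is a description of letters, and no binding was measured in these libraries.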

How the data were processed

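The data are read counts per gene of 12 RNA-seq libraries. The authors deposited them with FPKM values in 1 table. Per the labels and the study's methods, the libraries were made with a NEBNext Ultra II kit, reads were trimmed with cutadapt, aligned with HISAT2 to GRCm39 and counted with HTSeq. The strand setting and the treatment of reads with several matches are not given in the sources used here. The FPKM values in the deposited table were used only to recover the gene length behind them. The authors' own comparisons were not used.

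Counts were tested with the quasi-likelihood test of edgeR 4.0.16 in R 4.3.3, with TMM scaling, the default filter on low counts, all 12 libraries in 1 fit (8 residual degrees of freedom) and Benjamini-Hochberg adjustment over 11670 genes. A gene was called at an adjusted p below 0.05. Fold changes are log2 values with standard errors, and levels are normalised CPM. GC content came from the canonical transcript in GENCODE vM39, which gave a name for 21700 of the 21899 genes. Length is the gene length recovered from the deposited counts and FPKM values. The script was tested on simulated data.

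The comparison, the gene lists and the tests were chosen with earlier results of these data known. Genes were named by rule: in each direction, the 15 called genes that changed most, if they averaged 5 CPM or more and their groups were apart, called genes that held without each library, the 10 most abundant called genes, called genes of the lists (and the uncalled ones of ncBAF, the ligase and the interferon pathway), up to 4 called genes in each direction of symbol stems with at least 3 called, and changes of at least 2-fold. Other called genes were named after their values were seen, to describe the roles. Alternatives changed the scaling, filter, tool, libraries, design and call rule. A few genes are not reported here.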

Additional observations from a re-analysis of the deposited data

How the results depend on the processing

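The counts of 60 genes higher and 131 lower stayed within 1.5 times with the size factors of DESeq2, total counts, a stricter filter and a fold of at least 1.2. They were 118 and 281 with the Wald test of DESeq2, 174 and 361 without a filter, 276 and 500 in the fit of the 6 libraries, 346 and 578 in the fit of 9 libraries without JQ1, and 380 and 417 by unadjusted p with a fold of 1.2. They were 17 and 56 with the GC and length offsets, and 1 and 0 with the albumin division as a term, where edgeR gave 342 higher and 410 lower at an unadjusted p below 0.05. Without 1 library each they ranged from 6 to 64 higher and from 9 to 81 lower. The causes were not tested. No named gene that was called changed its direction in any alternative. Of 68 such genes, 1 stayed called with the division term, 25 with the offsets and 10 to 33 without 1 library each. Ifit2 lost its call in the fit of 9 libraries and Ppp1r14b in that of 6.

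The trend medians became 0.000 for the shortest and 0.000 for the longest bin of length, and -0.008 for the lowest and -0.003 for the highest bin of GC content with the offsets, which are made to remove them. With the 6 libraries and offsets they were 0.003, 0.004, 0.001 and -0.002. Against MR library 3 alone the highest GC bin was at 0.061. The Zfp genes went to 0.002 and 0.011 with the offsets in 12 and 6 libraries. The share of genes called lower with ISRE letters was 30.4% for the calls with offsets and 13.2% for those in the fit of the 6 libraries. No paired analysis was possible because the labels give no replicate numbers.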
